A study of Homo sapiens with 4 samples.

Results

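Integrins, laminins and basement membrane genes were examined in TOV112D cells, an established epithelial ovarian cancer cell line, after overexpression of the homeobox gene HOXD10. The set holds 36 genes listed by symbol, namely 20 integrin chains, 10 laminin chains, and nidogens, perlecan (HSPG2), agrin, dystroglycan (DAG1) and fibronectin. A named probe was found for 34 of them, with 46 probes, among 28264 probes and 19090 named genes in all. LAMA3 and DAG1 had no probe of that name and were not analysed here. The experimental group (HD) was transfected with the HOXD10 plasmid. The control group (ND) is given as mock-transfected cells in the methods and as control plasmid in the figure legends. Each group had 2 arrays, single-colour Human OneArray slides that received Cy5-marked antisense RNA amplified from the total RNA of the cells. Transfection was transient and did not reach every cell according to the methods, so each array averages cells with and without the plasmid. No source says whether both arrays of a group came from separate cultures, so the p-values rest on differences among arrays that may be technical repeats.

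Integrins are membrane receptors made of an α and a β chain, and the pair decides which matrix protein is bound. Laminins are trimers of an α, a β and a γ chain, and they polymerise into the sheet of the basement membrane, which nidogens, perlecan and agrin tie to collagen IV and to the cell. Fibronectin is the main ligand of the integrin α5β1. In ovarian cancer, adhesion to laminin, fibronectin and collagen takes part in spread over the peritoneum.

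The values are normalized intensities on a linear scale, raised to 50 where they were lower, and limma tested the difference of their log2, HD minus ND, across all probes. Intensities of different probes were not set against each other, because each probe has its own brightness. Sums of intensity over a list are given for each array. They are led by the brightest probes and do not measure a change shared by the genes of the list. The probe for HOXD10 itself was at 50 on all 4 arrays, and no source used here places that probe inside or outside the cloned sequence. By qPCR and western blot, the paper reports more HOXD10 mRNA and protein in TOV112D cells given the plasmid. Of 6 epithelial marker genes, CDH1 and KRT7 were at 50 on every array, and KRT8 was at 50 in ND and at 99.4 and 103 in HD. EPCAM rose by 2.13 and KRT19 fell by 1.13 on the log2 scale. HD lay above ND without overlap for KRT8, EPCAM and KRT18 (50%, against 25.2% of all genes). Of the 6, 2 passed as higher and 1 as lower (33.3% and 16.7%, against 6.67% and 7.97% of all genes). Their summed intensities were 1447 and 1526 in ND and 2759 and 2303 in HD. All 6 fibroblast markers were above 50 on at least 1 array (summed intensity 26040 and 27510 in ND, 48280 and 40878 in HD), with none passing (limma, 1 at an unadjusted p under 0.05). Their median log2 fold change was 0.19. Of 5 leukocyte markers measured, PTPRC rose by 1.55, CD14 (-0.39) and CD68 (-0.63) lay below 0 and did not pass, CD3E was near 50 and LYZ was at 50 throughout, and their summed intensity was 2609 and 3346 in ND and 2175 and 2323 in HD. None of 5 ovarian and Müllerian, 6 endothelial and 4 platelet markers measured passed (limma, 1 platelet marker lower at an unadjusted p under 0.05). All arrays came from the TOV112D line, so these markers are transcripts of that line and do not count cells of other types. In RNA from whole cultures, a change in some cells and a smaller change in all cells cannot be told apart.

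Genes of the set were called in both directions, and integrin and laminin chains make up most of the set. By the brightest probe of each gene, 5 of the 34 measured genes rose (ITGA6, ITGB1, LAMA2, LAMB1 and FN1) and 2 fell (ITGB4 and LAMA4), at an adjusted p under 0.05 from limma over all probes. These are 14.7% and 5.88% of the 34, against 6.67% of 19090 genes that were higher and 7.97% that were lower. Counted by probe, 7 of 46 rose and 3 fell, where 6.65% and 7.19% of all 28264 probes did. The brightest probe was chosen on all 4 arrays, and on the ND arrays alone another probe would stand for ITGA6, the only gene of the set so affected. By that choice, made after seeing the data, 4 genes rose and 2 fell, against 6.42% and 8.12% of all genes. After cyclic loess normalization 9 were higher and 2 lower, and after scaling to the 75th percentile 7 and 2. Under the study's criteria (unadjusted p under 0.05 together with a log2 difference of 1 or more either way) LAMC1 was added, with 6 genes higher and 2 lower (6.16% and 6.83% of all genes). The median log2 fold change over the 34 genes was 0.00, with 6 of them held at 50, and it was -0.05 over all genes. Among genes above 50 on at least 1 array, the median was 0.21 in the set and -0.13 over all genes. HD and ND values did not overlap for 13 genes with HD above (38.2%, against 25.2% of all genes) and for 10 with HD below (29.4%, against 37.4%). All calls at an adjusted p under 0.05, here and in the whole table, were lost when any of the 4 arrays was left out. With robust eBayes, ITGA6, LAMA2 and LAMA4 passed and ITGB1, ITGB4, LAMB1 and FN1 did not.

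**Figure D1:**
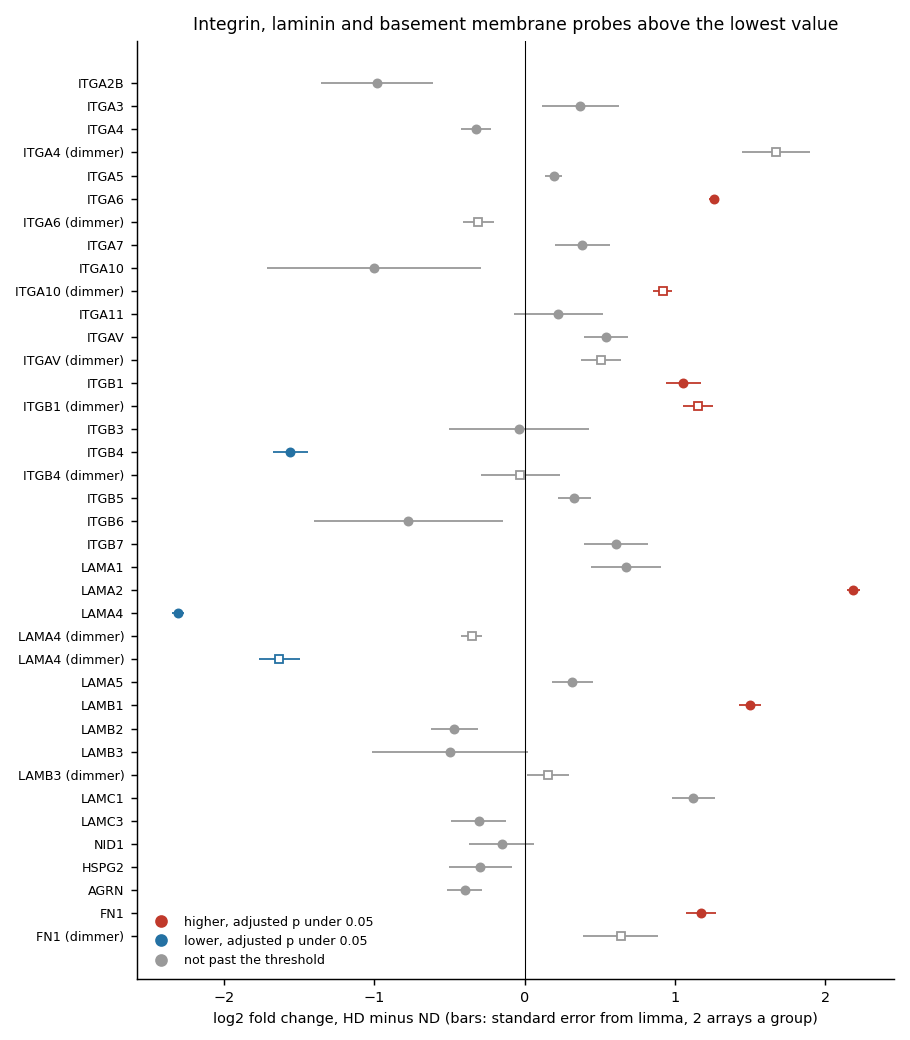
Log2 fold change, HD minus ND, of every probe of these genes above the lowest value of 50 on at least 1 array, with standard errors from limma (2 arrays a group). Filled points are the brightest probe of a gene, open squares its dimmer probes, red and blue mark probes higher and lower at an adjusted p under 0.05. LAMA2 (2.19) and LAMA4 (-2.31) lie at opposite ends.

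Among the laminin α chains, LAMA2 and LAMA4 moved in opposite directions. LAMA2, the α chain of the laminin of muscle and peripheral nerve, gave 567 and 592 in ND and 2701 and 2570 in HD. Both HD arrays lay far above both ND arrays, and the arrays of a group differed little. The gene was 4.55-fold higher in HD, a log2 fold change of 2.19 (standard error 0.04, adjusted p = 0.0229 from limma). LAMA4, the α chain of the laminin of vessel walls, gave 1845 and 1929 in ND and 388 and 373 in HD on its brightest probe. The groups did not overlap, and HD was 4.96-fold lower, a log2 fold change of -2.31 (standard error 0.04, adjusted p = 0.0229 from limma).

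The other probes of LAMA4 lay below 0 as well but not by the same amount. One gave 439 and 357 in ND and 132 and 124 in HD, a 3.10-fold decrease (log2 fold change -1.63, adjusted p = 0.0400 from limma). The remaining probe gave 324 and 360 in ND and 271 and 264 in HD, which did not pass (log2 fold change -0.35, adjusted p = 0.0846 from limma). So HD was the lower group on all 3 probes with no overlap, while the size of the difference depended on the probe. LAMA5, of the laminin of most mature epithelia, gave 1508 and 1707 in ND and 2175 and 1834 in HD (log2 fold change 0.32, adjusted p = 0.251 from limma). LAMA1, the α chain of embryonic laminin, was dim, at 59.4 and 84.0 in ND and 107 and 119 in HD (log2 fold change 0.67, adjusted p = 0.186 from limma).

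LAMB1 and LAMC1 encode the β1 and γ1 chains found in most laminins, and HD lay above ND for both. LAMB1 gave 1623 and 1807 in ND and 4909 and 4766 in HD, a 2.82-fold rise (log2 fold change 1.50, standard error 0.07, adjusted p = 0.0317 from limma). LAMC1 gave 2201 and 2276 in ND and 5428 and 4365 in HD. No HD value came near the ND values for either gene, but the HD arrays differed by 1.24-fold for LAMC1. Its log2 fold change of 1.12 (standard error 0.14) met the study's criteria and narrowly missed an adjusted p under 0.05 (adjusted p = 0.0509 from limma). It was 0.0429 with an intensity trend and 0.0236 after quantile normalization.

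The alternative β and γ chains did not pass. LAMB2, which replaces β1 in muscle and kidney laminins, gave 4770 and 4874 in ND and 3933 and 3091 in HD, a log2 fold change of -0.47 (adjusted p = 0.177 from limma). HD was thus the lower group, with no overlap, where LAMB1 was higher. Probes as bright as that of LAMB2 had a median log2 fold change of -0.24. Of all genes, 37.4% had HD below ND without overlap. LAMC3 gave 1703 and 1868 in ND and 1651 and 1260 in HD (log2 fold change -0.31, adjusted p = 0.376 from limma). LAMB3, a chain of the laminin that anchors skin epithelium, gave 316 and 240 in ND and 133 and 285 in HD on its brightest probe, so the groups overlapped and the HD arrays disagreed. Its other probe was at 50 on 3 arrays and 61.9 on HD replicate 2.

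**Figure D2:**
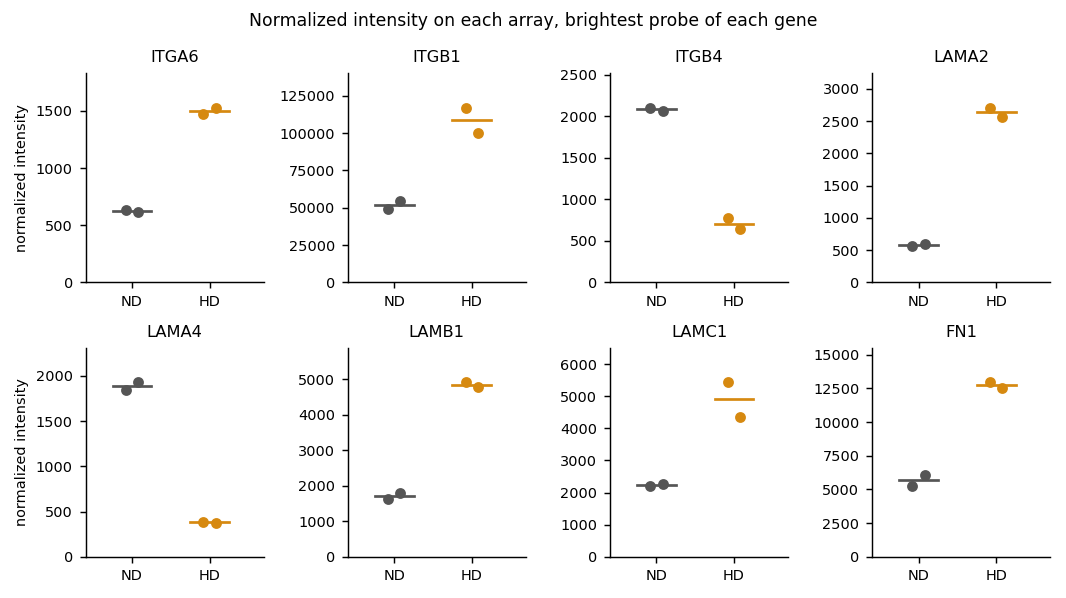
Normalized intensity on each of the 4 arrays for the 8 genes that passed an adjusted p under 0.05 or the study's criteria on their brightest probe, with points for arrays and bars for the mean of 2 arrays. No HD point overlaps the ND points in any panel, with LAMA4 and ITGB4 lower and the other 6 genes higher in HD.

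Set out by trimer, the chains of the laminin α2β1γ1 all lay above 0, with log2 fold changes of 2.19, 1.50 and 1.12 for LAMA2, LAMB1 and LAMC1. In the laminin α4β1γ1, LAMA4 at -2.31 stood beside the same 2 chains. For α5β1γ1, LAMA5 was at 0.32 and did not pass, and for α1β1γ1, LAMA1 was at 0.67 and did not pass. Trimers with the β2 chain joined a log2 fold change of -0.47 for LAMB2 to that of LAMC1. These are differences of each transcript between groups and say nothing of how much of each trimer was present. Of the skin laminin α3β3γ2, LAMB3 was the chain with a named probe.

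Sequence upstream of the start was set out for the laminin genes whose probes differed most and for FN1, since these genes moved with or against each other. The 250 bases before the RefSeq start (GRCh38.p14), 5′ to 3′ on the strand of the gene, follow. Capitals mark TTTAT or its reverse complement ATAAA, core letters favoured by posterior HOX proteins such as HOXD10, and GGGCGG or its reverse complement CCGCCC, the GC box.
LAMA2, chr6:128882888-128883137, + strand: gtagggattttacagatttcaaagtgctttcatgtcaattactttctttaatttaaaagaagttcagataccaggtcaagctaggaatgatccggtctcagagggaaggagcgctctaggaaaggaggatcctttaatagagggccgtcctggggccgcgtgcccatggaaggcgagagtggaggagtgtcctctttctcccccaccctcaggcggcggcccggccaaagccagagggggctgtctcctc
LAMA4, chr6:112254568-112254817, - strand: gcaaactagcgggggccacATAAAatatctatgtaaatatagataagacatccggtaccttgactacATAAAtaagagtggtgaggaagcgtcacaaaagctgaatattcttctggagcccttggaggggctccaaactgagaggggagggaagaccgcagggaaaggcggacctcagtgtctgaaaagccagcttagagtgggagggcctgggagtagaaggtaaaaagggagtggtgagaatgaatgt
LAMB1, chr7:108003162-108003411, - strand: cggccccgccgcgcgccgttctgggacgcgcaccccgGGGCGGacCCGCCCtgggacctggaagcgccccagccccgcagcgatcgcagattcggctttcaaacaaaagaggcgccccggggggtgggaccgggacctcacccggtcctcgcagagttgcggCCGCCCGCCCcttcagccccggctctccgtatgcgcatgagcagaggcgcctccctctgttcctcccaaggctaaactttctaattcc
LAMC1, chr1:183023170-183023419, + strand: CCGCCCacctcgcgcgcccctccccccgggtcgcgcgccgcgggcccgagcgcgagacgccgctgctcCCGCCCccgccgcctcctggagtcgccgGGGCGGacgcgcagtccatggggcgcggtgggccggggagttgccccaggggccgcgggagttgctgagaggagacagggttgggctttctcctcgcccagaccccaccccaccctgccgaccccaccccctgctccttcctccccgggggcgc
FN1, chr2:215436069-215436318, - strand: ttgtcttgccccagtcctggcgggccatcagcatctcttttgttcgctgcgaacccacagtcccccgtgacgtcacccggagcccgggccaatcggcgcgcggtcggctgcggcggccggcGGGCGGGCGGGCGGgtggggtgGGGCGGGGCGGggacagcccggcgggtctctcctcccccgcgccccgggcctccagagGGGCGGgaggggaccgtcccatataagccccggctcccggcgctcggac

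LAMA4, which was lower in HD, held 2 matches to TTTAT and none to the GC box, and LAMA2, which was higher, held none of either. LAMB1, LAMC1 and FN1, all with HD above ND though LAMC1 did not pass (adjusted p = 0.0509 from limma), held 4, 3 and 6 matches to the GC box, some overlapping each other, and none to TTTAT. G and C made up 48.4% of the LAMA4 window and 53.2% of that of LAMA2, against 70.4%, 79.6% and 76.4% for LAMB1, LAMC1 and FN1. Of the 36 genes, 28 had a RefSeq start in the table, and 10 of these (35.7%) held TTTAT and 18 (64.3%) the GC box in at least 1 window. Counted in the same way, 37.6% of all 27305 genes of the table held TTTAT and 46.2% the GC box, and by start 32.7% and 42.6% of 35116. ITGB1, which rose, and ITGA6, which rose on 1 of its probes, also held TTTAT in a window. The 5 genes printed were chosen with their changes known. These are matches of letters and not sites of binding.

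Of the 7 integrin β chains, ITGB1 rose, ITGB4 fell and 5 did not pass. Each way this is 1 gene (14.3%), against 6.67% of all genes higher and 7.97% lower. ITGB1, the β1 chain that pairs with most α chains, gave 49498 and 54772 in ND and 116724 and 100237 in HD on its brightest probe. A second, dimmer probe gave 4932 and 5205 in ND and 12110 and 10473 in HD. Both probes separated the groups and were 2.08-fold and 2.22-fold higher in HD, with log2 fold changes of 1.05 ± 0.12 and 1.15 ± 0.10 (standard error) and adjusted p-values of 0.0463 and 0.0406 from limma. ITGB4, which pairs with α6 and anchors epithelia to laminin in hemidesmosomes, gave 2100 and 2069 in ND and 773 and 646 in HD. It was 2.95-fold lower in HD, a log2 fold change of -1.56 (standard error 0.12, adjusted p = 0.0377 from limma). A dim second probe of ITGB4 did not separate the groups, at 89.6 and 112 in ND and 82.4 and 116 in HD.

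The other β chains did not pass. ITGB5, the β chain of a vitronectin receptor, gave 3334 and 3512 in ND and 4664 and 3969 in HD (log2 fold change 0.33, adjusted p = 0.176 from limma). ITGB7, a β chain of lymphocyte integrins, gave 108 and 79.0 in ND and 134 and 148 in HD (log2 fold change 0.61, adjusted p = 0.190 from limma). For these genes HD lay above ND without overlap, within a spread that the test did not separate. ITGB3 overlapped between the groups, at 136 and 67.7 in ND and 83.3 and 105 in HD. ITGB6, the β chain of an epithelial activator of latent TGF-β, gave 729 and 273 in ND and 264 and 258 in HD, so its log2 fold change of -0.77 rested on ND replicate 1. Both probes of ITGB8 were at 50 on all arrays.

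By the brightest probe of each gene, 1 of 13 integrin α chains (7.69%) rose, against 6.67% of all genes. ITGA6, the α chain of laminin receptors, was the α chain called on the probe brightest over all 4 arrays. That probe gave 632 and 620 in ND and 1469 and 1524 in HD, a 2.39-fold rise (log2 fold change 1.26, standard error 0.03, adjusted p = 0.0237 from limma). The second probe of ITGA6, which would be the one chosen on the ND arrays alone, gave 667 and 780 in ND and 575 and 590 in HD. It lay on the other side of 0, and did not pass (log2 fold change -0.31, adjusted p = 0.177 from limma, 95% interval -0.67 to 0.05). The direction for ITGA6 therefore depended on the probe, and its HD values decided which probe was counted.

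ITGA4 and ITGA10 also had probes on both sides of 0. ITGA4, the α chain of a fibronectin and VCAM1 receptor, gave 259 and 300 in ND and 217 and 229 in HD on its brighter probe (log2 fold change -0.32, adjusted p = 0.160 from limma). The dimmer probe gave 52.8 and 66.5 in ND and 165 and 215 in HD. This probe separated the groups by 3.18-fold and met the study's criteria, though not an adjusted p under 0.05 (log2 fold change 1.67, adjusted p = 0.0541 from limma). ITGA10, of a collagen receptor of cartilage, gave 359 and 119 in ND and 109 and 98.0 in HD on its brighter probe, where ND replicate 1 stood apart. Its dimmer probe gave 70.7 and 77.8 in ND and 141 and 139 in HD, a 1.89-fold rise (log2 fold change 0.92, adjusted p = 0.0363 from limma), so the direction depended on the probe here too.

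The remaining α chains did not pass on any probe. ITGAV, the α chain of vitronectin receptors, gave 18192 and 19409 in ND and 30496 and 24477 in HD, and a dimmer probe gave 248 and 268 in ND and 403 and 332 in HD. Both probes separated the groups by a like amount, with log2 fold changes of 0.54 and 0.50 (adjusted p = 0.133 and 0.127 from limma). After quantile normalization the brighter probe passed, at 1.05 (adjusted p = 0.0262 from limma). That probe also passed after cyclic loess normalization and scaling to the 75th percentile. It did not pass with an intensity trend or robust eBayes (adjusted p = 0.117 and 0.165 from limma). ITGA5, the α chain of the fibronectin receptor, gave 1931 and 1944 in ND and 2308 and 2121 in HD. HD lay above ND without overlap by a small amount and did not pass (log2 fold change 0.19, 95% interval -0.01 to 0.39, adjusted p = 0.146 from limma). ITGA7, a laminin receptor chain of muscle, gave 6778 and 8578 in ND and 10791 and 9168 in HD (log2 fold change 0.38, adjusted p = 0.289 from limma).

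ITGA3, of another laminin receptor, was dim, at 62.2 and 90.3 in ND and 90.1 and 104 in HD. ITGA11, of a receptor for fibrillar collagen, gave 89.6 and 140 in ND and 124 and 138 in HD, and both genes overlapped between groups. ITGA2B, known from platelets, gave 1751 and 998 in ND and 626 and 715 in HD. HD was lower without overlap for ITGA2B, but the ND arrays differed by 1.75-fold and the gene did not pass (log2 fold change -0.98, adjusted p = 0.211 from limma). ITGA1, ITGA2, ITGA8 and ITGA9 were at 50 on all arrays, which gives no direction for them. Among the 34 genes, ND replicate 1 was at least 1.5 times ND replicate 2 for 4 (ITGA2B, ITGA10, ITGB3 and ITGB6), and 8.17% of all genes showed such a gap. The reverse gap was seen for ITGA11 alone, against 2.71% of all genes.

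FN1, fibronectin, was higher in HD and is a ligand of α4β1, α5β1, α8β1 and several αV integrins. Its brightest probe gave 5237 and 6098 in ND and 12942 and 12555 in HD. The HD arrays were close together and lay above both ND arrays, a 2.26-fold rise (log2 fold change 1.17, standard error 0.10, adjusted p = 0.0401 from limma). A dim probe gave 102 and 69.0 in ND and 133 and 128 in HD (log2 fold change 0.64, adjusted p = 0.225 from limma).

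Matched to their ligands, the fibronectin receptor chains ITGB1, ITGA5, ITGAV and ITGA4 had log2 fold changes of 1.05, 0.19, 0.54 and -0.32 on their brightest probes beside 1.17 for FN1, and ITGA8 was at 50 on all arrays. Of these, ITGB1 and FN1 passed. For the laminin receptor α6β1, the probes counted for both chains rose (1.26 and 1.05), and in α6β4 the same α chain stood beside a fall of ITGB4 (-1.56). On the other probe of ITGA6, at -0.31, neither statement about the α chain holds. The laminin α2 chain, at 2.19, is bound by α7β1, whose ITGA7 was at 0.38 and did not pass. LAMA5, a ligand of α3β1 and α6β4, did not pass, and ITGA3 was dim. The α chains of the collagen receptors α1β1 and α2β1 were at 50 throughout, and ITGB1, their β chain, rose.

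**Figure D3:**
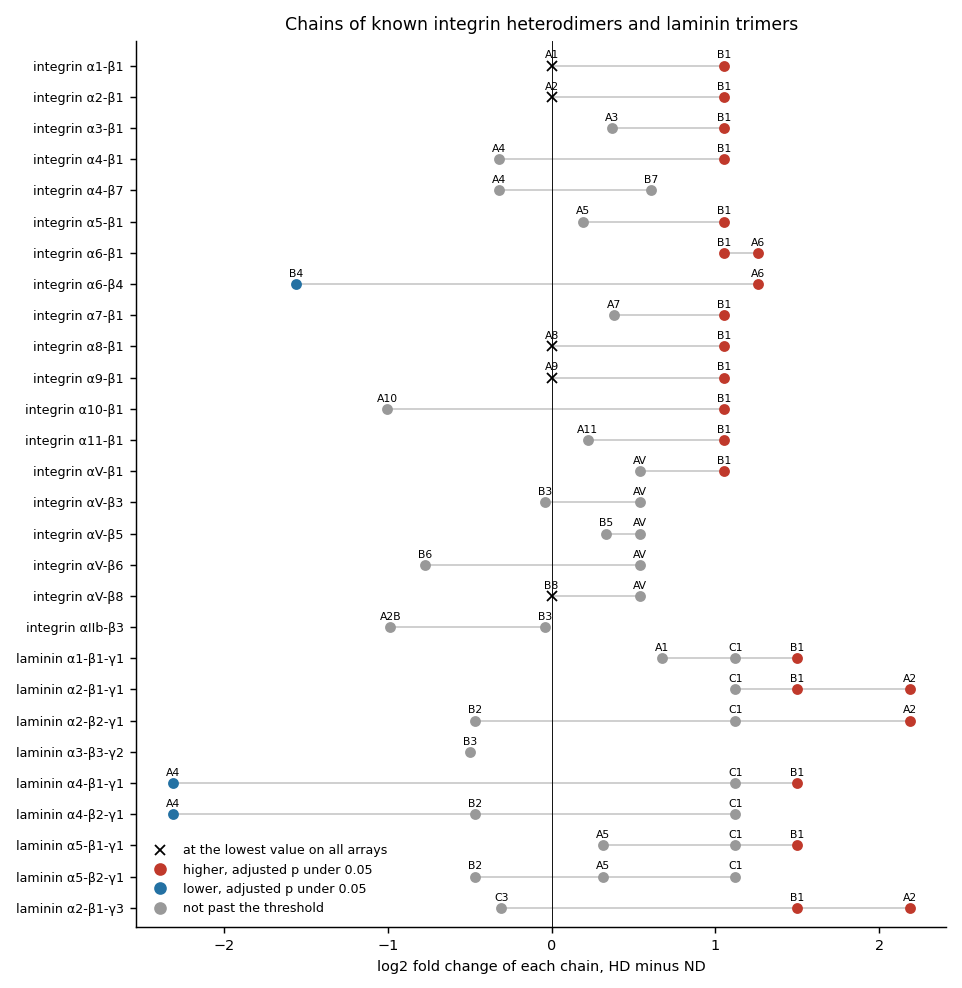
Log2 fold change, HD minus ND, of the brightest probe of each chain (labels, with ITG and LAM left off), with 1 line for each integrin heterodimer or laminin trimer. Red and blue points passed an adjusted p under 0.05, grey points did not, and crosses mark chains at the lowest value on all arrays. In α6β4 the chains lie at 1.26 and -1.56, and in laminin α4β1γ1 LAMA4 at -2.31 stands against LAMB1 at 1.50.

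The linkers of the basement membrane did not pass. AGRN, agrin, gave 3379 and 3807 in ND and 2904 and 2541 in HD, a log2 fold change of -0.40 without overlap (adjusted p = 0.143 from limma, 0.0475 after quantile normalization). HSPG2, perlecan, gave 234 and 169 in ND and 166 and 158 in HD (log2 fold change -0.30). NID1, nidogen-1, which joins laminin to collagen IV, gave 710 and 971 in ND and 797 and 699 in HD, and the groups overlapped. NID2 was at 50 on all arrays.

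Brightness moved with the comparison, since bright probes lay below 0 as a whole. The median log2 fold change was -0.04 for probes whose mean log2 intensity lay between 10 and 11, -0.37 between 13 and 14 and -0.93 between 16 and 17. ITGB1, in the last range, was at 1.05 on the deposited scale and at 1.84 after quantile normalization. FN1 moved from 1.17 to 1.42, whereas LAMA2 (2.20), LAMA4 (-2.30), ITGB4 (-1.57) and ITGA6 (1.25) hardly moved. All 10 probes called here kept their call and direction under the 3 other scalings.

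**Figure D4:**
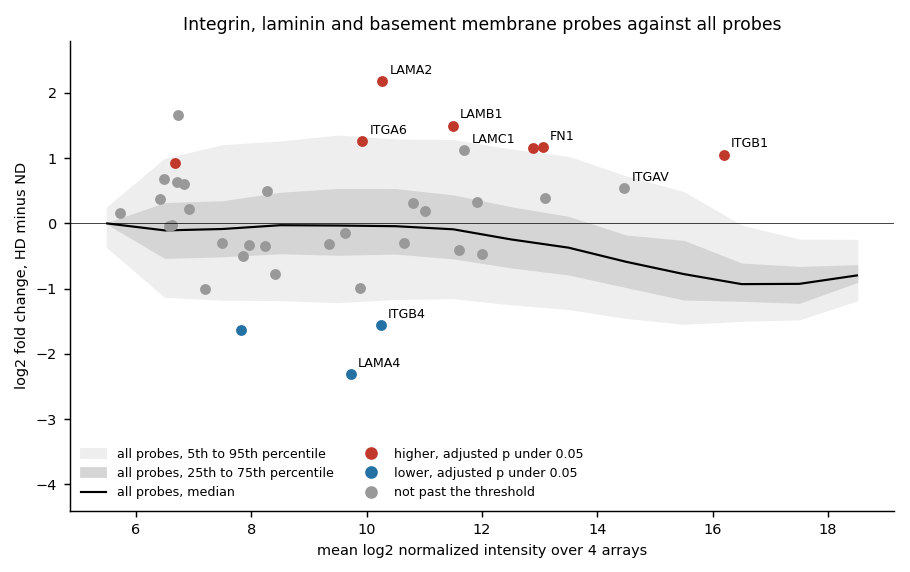
Log2 fold change, HD minus ND, against mean log2 intensity over 4 arrays for the probes of these genes, over bands that hold the middle 50% and 90% of all probes. The black median falls to -0.93 for mean log2 intensities between 16 and 17, and is -0.80 between 18 and 19. ITGB1, between 16 and 17, lies at 1.05 above the upper band.

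Genes with long transcripts were looked at because such transcripts are sensitive to the quality of the RNA. In a list of genes of mixed function with such transcripts, 12 of 37 (32.4%) rose and none fell (limma, 2 lower at an unadjusted p under 0.05), against 6.67% and 7.97% of all genes, with a median log2 fold change of 0.68, and the summed intensity was 73629 and 78828 in ND and 126600 and 121736 in HD. Transcript lengths of the integrin, laminin and basement membrane genes were not measured here, and the part of length in their changes was not tested.

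Genes that act beside these receptors were taken from lists of related function. The lists were chosen with these data known. In the cytoplasm, integrin tails bind adaptors such as talins, kindlins and the kinase complex of ILK. Of 37 measured adaptors, 1 (2.7%) rose and 4 (10.8%) fell, against 6.67% and 7.97% of all genes, with a median log2 fold change of -0.21. FERMT2, kindlin-2, which activates β1 integrins, rose from 23799 and 25149 in ND to 77051 and 71627 in HD (log2 fold change 1.60, adjusted p = 0.0281 from limma), and a second probe rose by 2.10. FBLIM1, migfilin, a filamin-binding adaptor, gave 714 and 694 in ND and 124 and 167 in HD (log2 fold change -2.29, adjusted p = 0.0400 from limma), with -0.85 and -0.39 on dimmer probes. The other falls were SORBS3 (-0.76), LIMS2 (-0.66) and ACTN4 (-0.73), the last among probes of a brightness at which the median of all probes was -0.59. LIMS1 and PTK2, the focal adhesion kinase, had log2 fold changes of 1.41 and 1.01, which met only the study's criteria (adjusted p = 0.0503 and 0.0516 from limma), and a dimmer probe of LIMS1 passed at 1.37 (adjusted p = 0.0458 from limma). The talin genes TLN1 and TLN2 were at -0.21 and 0.36 and did not pass.

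Of 27 other integrin ligands, 3 (11.1%) rose and 1 (3.7%) fell, against 6.67% and 7.97% of all genes. The groups overlapped for 18 of the 27, and for 7134 of all 19090 genes. POSTN, periostin, a ligand of αV integrins, gave 136 and 169 in ND and 782 and 618 in HD, a log2 fold change of 2.20 (adjusted p = 0.0421 from limma). CCN2, a matricellular protein, gave 5552 and 5821 in ND and 22296 and 21361 in HD, a log2 fold change of 1.94 (adjusted p = 0.0237 from limma). Both HD arrays were above every ND array for these genes and for TNC, tenascin-C, a ligand of α9β1 (log2 fold change 0.91). TGFBI fell, at a log2 fold change of -1.06.

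Of 21 other basement membrane components, none rose and 3 (14.3%) fell (limma, 2 higher at an unadjusted p under 0.05), against 7.97% of all genes lower. The groups overlapped for 14 of the 21, and for 7134 of all 19090 genes. The collagen IV chains COL4A1 and COL4A2, which form the basement membrane network with each other, had log2 fold changes of -0.49 and -1.04. COL4A2 gave 1650 and 1969 in ND and 864 and 894 in HD. PXDN, peroxidasin, which crosslinks collagen IV, was also lower, at 2226 and 2692 in ND and 708 and 691 in HD (log2 fold change -1.81, adjusted p = 0.0363 from limma). COL4A5 and HMCN1, hemicentin-1, had log2 fold changes of 1.10 and 1.59 and met the study's criteria only.

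Among 14 tetraspanins, syndecans and other receptors of laminin or integrin partners, none rose and 4 (28.6%) fell (limma, 0 higher at an unadjusted p under 0.05), against 7.97% of all genes lower. SDC2, a syndecan that binds fibronectin, gave 224 and 258 in ND and 90.9 and 105 in HD (log2 fold change -1.30, adjusted p = 0.0435 from limma), but its dimmer probe was at -0.02. TSPAN4 (-1.12), CD82 (-0.77) and the hyaluronan receptor CD44 (-0.54) were the others. CD151, the tetraspanin partner of laminin-binding integrins, did not pass (log2 fold change -0.54, adjusted p = 0.0698 from limma). Among 7 integrin and laminin genes outside the set, none rose and 1 (14.3%) fell, against 6.67% and 7.97% of all genes. This was ITGAE, an α chain of a lymphocyte integrin, from 43100 and 45974 to 19531 and 16131 (log2 fold change -1.33, where probes as bright had a median of -0.59). DAG1 itself was not analysed here, and none of the 9 measured genes that glycosylate dystroglycan passed (limma, 1 higher and 2 lower at an unadjusted p under 0.05). In the dystrophin complex, which dystroglycan anchors, SGCB, β-sarcoglycan, rose by 1.40 and the other 10 measured genes did not pass. That is 9.09% of the 11 measured, against 6.67% of all genes higher.

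**Figure D5:**
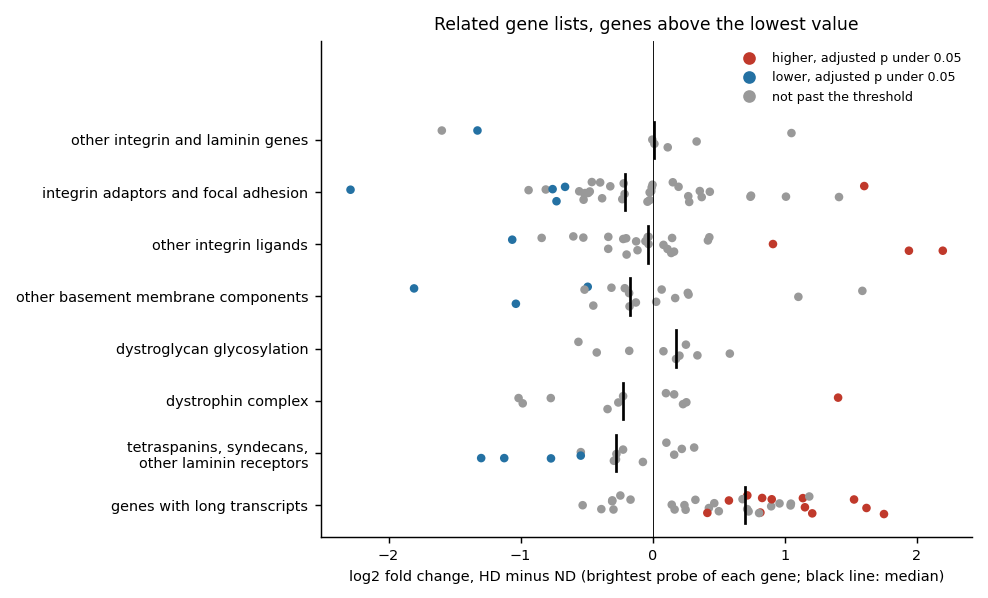
Log2 fold change, HD minus ND, of the brightest probe of each gene in 8 lists of related function, for genes above the lowest value of 50 on at least 1 array. Red and blue points passed an adjusted p under 0.05, and black lines mark medians. FERMT2 (1.60), CCN2 (1.94) and POSTN (2.20) lie to the right and FBLIM1 (-2.29) and PXDN (-1.81) to the left.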

How the data were processed

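Antisense RNA amplified from total RNA of TOV112D cells, 2 samples from HD and 2 from ND, carried Cy5 on single-colour OneArray slides. The authors scanned them, read spots with GenePix, normalized in Rosetta Resolver with centring at the 75th percentile, and deposited intensity values on a linear scale, none below 50. In the table the arrays share their median, 361, and not their 75th percentile. How background was subtracted is stated in none of the sources used. The log2 of the deposited intensity of all 28264 probes entered 1 unblocked linear model (lmFit, eBayes; limma 3.58.1, R 4.3.3), with Benjamini-Hochberg adjustment over the probes. Prior and residual degrees of freedom were 0.543 and 2. The script was tested on simulated data. Probes were named by the platform annotation, in which 25893 have 1 symbol and 2371 none. Each gene was counted once, through whichever of its probes was brightest on average. The 36 genes and all lists were chosen with earlier results of these data known, and the list of genes with long transcripts after the table was opened. All 36 genes were named, those called on any probe with each array's value, and from related lists the called genes of largest change. Alternatives covered normalization, a pseudocount of 50, filters, variance models, a block on replicate number, fits without 1 array, the threshold and the mean over probes. With 2 arrays a group their number limits the precision.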

Additional observations from a re-analysis of the deposited data

How the results depend on the processing

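The deposited values gave 5 genes higher and 2 lower of 34, with a median log2 fold change of 0.00. The count higher was 9 with cyclic loess and 8 with quantile normalization, and 8, with 4 lower, where only probes above the lowest value in a group entered, which left 28 genes. The median was 0.21 with that filter and 0.32 where only probes above the median brightness entered, which left 18 genes. Over all probes that entered, the median was -0.13 and -0.17. Genes held at 50 drop out under both filters, and other dim genes drop out under the second. Robust eBayes gave 2 higher and 1 lower. With the replicate number as a block the counts were 0 and 0 (limma, 6 and 3 at an unadjusted p under 0.05). The smallest adjusted p over all probes in that fit was 0.142 (limma). Same-numbered arrays deviated in opposite directions (r = -0.32 across 21966 probes, which are not independent replicates), and crossing the numbers, chosen after seeing the data, also gave 0 and 0, with a smallest adjusted p of 0.0641. With any array left out both counts were 0 to 0 and the median ran from 0.00 to 0.02, in fits with 1 array in a group, whose spread is assumed to be that of the other group. At an unadjusted p under 0.05 those fits gave 6 to 9 genes higher and 3 to 6 lower, against 7 and 2 with all arrays. None of the 10 called probes turned direction under the other normalizations or the pseudocount. The other settings could not turn them. Blocks, variance models and filters leave the log2 fold change of a probe as it is. Groups that do not overlap, as for all 10, keep their direction when an array is left out. Sign changes were limited to probes that did not pass. ITGB3 was at 0.0378 after quantile normalization and ran from -0.54 to 0.46 with an array left out. The dim probe of ITGB4 was at 0.0792 with quantile and 8e-04 with cyclic loess normalization, and ran from -0.28 to 0.22. Without an array, ITGA11 ran from -0.10 to 0.55, LAMB3 from -1.04 to 0.0487 and NID1 from -0.38 to 0.0718. The causes were not tested. Values near 50 limit what can be said of dim probes.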
